A study of Homo sapiens with 8 samples.

Results

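The 10 genes described here belong to the actin cytoskeleton, or encode its main transcription factor, and were followed in BT-549 cells, an established triple negative breast cancer (TNBC) line of mesenchymal type. They are ACTB, ACTG1, ACTA2, TAGLN, MYL9, CNN1, TPM1, VCL, SRF and FLNA, 10 of the 23228 genes that were counted, and they were taken by gene symbol. The cells were kept in RPMI medium with serum and treated for 24 h in 4 groups with 2 RNA-seq libraries each. These groups were vehicle (DMSO), EC359 at 100 nM, vorinostat at 10 µM, and EC359 with vorinostat at the same doses, called the combination here. EC359 is an inhibitor of the leukemia inhibitory factor receptor (LIFR), and vorinostat (SAHA) is a histone deacetylase inhibitor (HDACi). The study asked whether blocking LIFR adds to the action of an HDACi, and the comparisons of the groups address what that does to the transcriptome. All 8 libraries come from the same cell line. The study's methods speak of biological replicates for its in vitro assays in general, but the labels do not say that libraries of a group came from separate cultures, so p-values measure the spread between these libraries, which may be technical.

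Actin is held in cells as monomers and as filaments, and the balance between them is read by the transcription factor SRF. Its coactivators, the myocardin-related transcription factors MRTFA and MRTFB, bind actin monomers in the cytoplasm. When monomers are drawn into filaments the coactivators are freed, enter the nucleus and join SRF at a DNA element called the CArG box. Many genes switched on in this way encode actin itself and the proteins that bundle, cap, bear load on or contract its filaments, so the pathway feeds back on its own machinery. SRF also works with ETS factors such as ELK1 at immediate early genes, which follow growth factor signals. In mesenchymal cells these genes build the stress fibres and focal adhesions used to spread and migrate.

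The CArG box is the DNA element at which SRF acts. It was searched for in promoter windows of 300 bases, 250 before and 50 after each RefSeq start (table on GRCh38.p14). The box has 10 bases, a run of 6 that are each A or T between CC and GG, and reads alike on both strands. Windows were found for 7 of the 10 genes, and 3 of these genes held an exact box: ACTG1, FLNA and SRF itself. Among all genes in the table, 438 of 27305 (1.6%) had such a window, as did 454 of 35116 windows (1.29%). The stretches that hold the boxes are printed because they show the element in a cytoplasmic actin gene, a filament crosslinker and the factor's own gene. The CArG boxes are in capitals, each sequence runs 5′ to 3′ on the gene's strand, and positions are on GRCh37, where the windows matched exactly. They lie at chr17:79479878-79479975 on the minus strand for ACTG1, at chrX:153603003-153603152 on the minus strand for FLNA and at chr6:43138857-43139006 on the plus strand for SRF.
ACTG1: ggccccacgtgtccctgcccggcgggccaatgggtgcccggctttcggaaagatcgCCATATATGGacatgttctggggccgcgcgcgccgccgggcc
FLNA: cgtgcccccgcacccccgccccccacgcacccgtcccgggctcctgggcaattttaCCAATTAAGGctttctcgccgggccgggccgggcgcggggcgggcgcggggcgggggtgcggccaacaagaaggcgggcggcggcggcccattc
SRF: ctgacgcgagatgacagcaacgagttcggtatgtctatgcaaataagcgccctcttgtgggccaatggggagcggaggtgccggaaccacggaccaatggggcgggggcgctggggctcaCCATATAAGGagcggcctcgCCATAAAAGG
The box began 94 bases before the start in both ACTG1 and FLNA, and the boxes of SRF began 30 and 10 bases before its start. With 1 mismatch allowed, 8.13% of all windows held a match, and ACTA2 joined the other 3 genes. The windows of CNN1, TPM1 and VCL had no exact box, which says only that these letters are not in these 300 bases. ACTB, TAGLN and MYL9 were not searched. A match in sequence is a description and was not tested as a binding site in these cells.

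The libraries held 19069450 to 24759041 counts on genes, with normalization factors of 0.955 to 1.03. Of the mesenchymal markers read, VIM (2056 to 9442 CPM, counts scaled to the size of the library) and FN1 (1879 to 4588 CPM) were abundant in every library. The others were lower, with CDH2 at 22.7 to 39.5 CPM, ZEB1 at 43.2 to 208 CPM and TWIST1 at 13.5 to 68.7 CPM. Group means of TWIST1 were 67.6 CPM in vehicle and 14.4 CPM in the combination, and those of ZEB1 were 83.5 CPM in vehicle and 44.7 CPM with vorinostat. Of 7 luminal and epithelial markers, PGR, ESR1, CDH1, EPCAM and GATA3 did not exceed 4.27 CPM and KRT8 did not exceed 9.67 CPM, while ERBB2 was 99.1 CPM in vehicle and 12.3 CPM in the combination. In addition, the 7 leukocyte and endothelial markers did not exceed 2.15 CPM. Of 13694 genes that passed a filter on low counts, all 10 named here were tested. A gene rose or fell where edgeR's quasi-likelihood test gave an adjusted p under 0.01, and errors of log2 fold changes are standard errors. They rest on a spread estimated over all groups, though the libraries of a group did not differ equally. Over all tested genes, log2 differences between the libraries of a group had an SD of 0.424 with EC359 and 0.318 in the combination. It was 0.226 in vehicle and 0.213 with vorinostat, so errors may be too small for EC359 and too large for vorinostat.

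Levels of different genes can be set side by side only per length, as RPKM, which is CPM divided by the transcript length in kilobases. In vehicle the order was ACTB at 2745 ± 106 RPKM (SD, n = 2), ACTG1 at 2005 ± 87.6, TPM1 at 479 ± 25.4, FLNA at 467 ± 15.0, VCL at 59.6 ± 2.37, MYL9 at 41.8 ± 0.574, TAGLN at 21.4 ± 0.546, SRF at 18.7 ± 0.147, ACTA2 at 0.332 ± 0.224 and CNN1 at 0.329 ± 0.0246. TPM1 and FLNA did not differ beyond their spread in vehicle, and neither did ACTA2 and CNN1. The places of ACTB, ACTG1, TPM1, TAGLN, MYL9 and VCL depend on the transcript length taken. Over their coding transcripts ACTB lies between 1948 and 3327 RPKM and ACTG1 between 1544 and 3133. With the shortest coding transcript TAGLN would stand at 77.4 RPKM, MYL9 at 114 and VCL at 59.6, and TPM1 lies between 262 and 630 RPKM over its coding transcripts. CNN1 and ACTA2 were thus barely detected in untreated cells, while the cytoplasmic actins were abundant. Together the 10 genes took 0.899% to 1.43% of all gene counts.

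**Figure D1:**
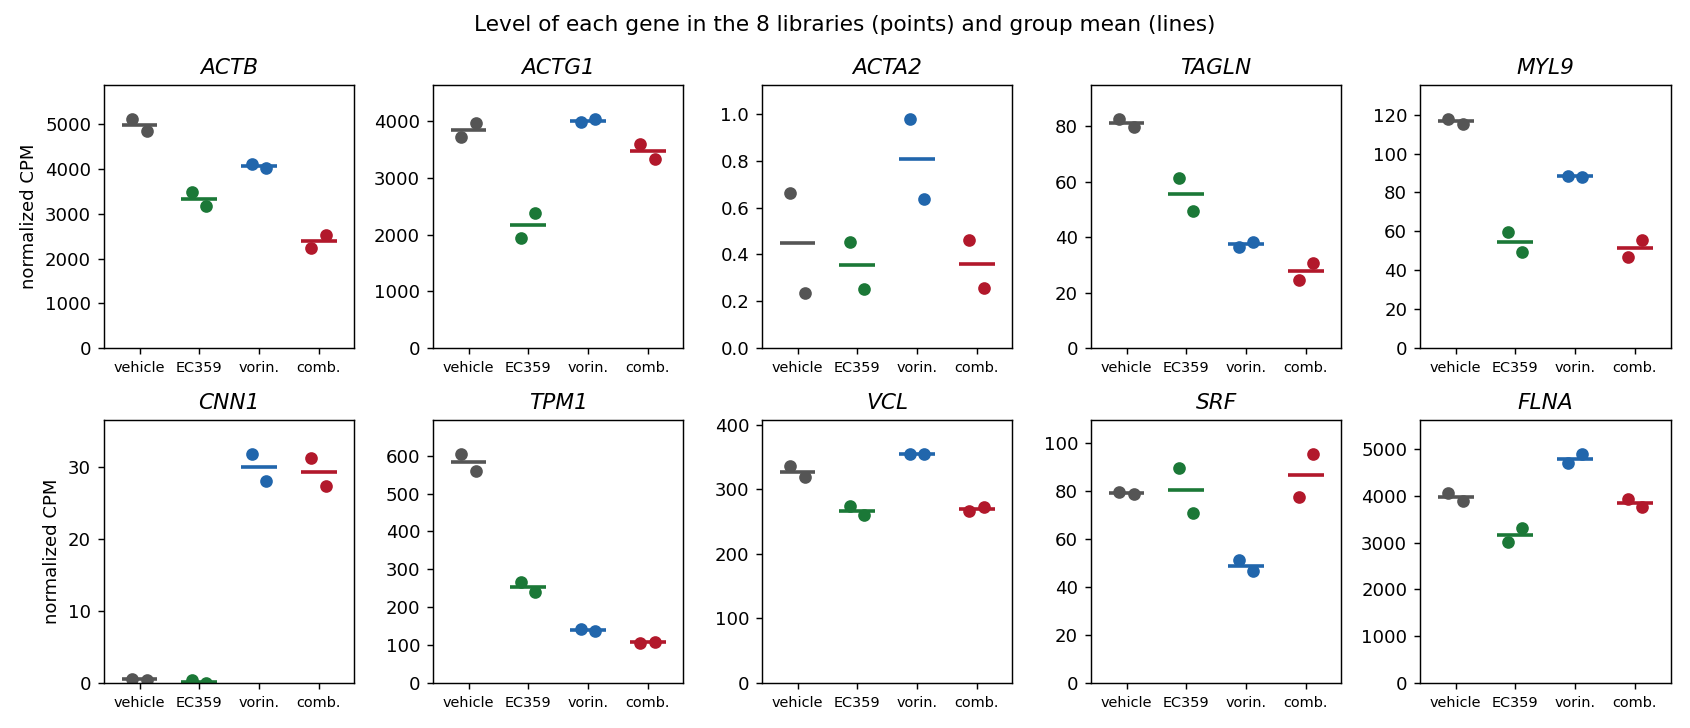
Normalized CPM (vertical axes, each starting at 0) of the 10 genes in the 8 libraries, with points for libraries and lines for the mean of each group of 2. CNN1 is at most 0.519 CPM without vorinostat and between 27.4 and 31.8 CPM with it, TPM1 falls from 583 CPM in vehicle to 107 CPM in the combination, and SRF is lower in both vorinostat libraries than in the other 6.

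ACTB (chr7:5566040-5603533 on GRCh37, as for the positions that follow) and ACTG1 (chr17:79476439-79490873) encode the cytoplasmic beta and gamma actins, which differ in a few residues and build the filaments of most nonmuscle cells. In bulk RNA, fewer cells with a transcript and less of it per cell cannot be told apart. ACTB was 5110 and 4839 CPM in the vehicle libraries, 3481 and 3165 with EC359, 4111 and 4022 with vorinostat, and 2239 and 2532 in the combination. The 4 groups did not overlap, with vehicle highest and the combination lowest. ACTB fell with EC359 by 0.58 ± 0.09 on the log2 scale (adjusted p = 0.00198) and in the combination by 1.06 ± 0.09 (adjusted p = 5.72e-06). Its difference with vorinostat alone was -0.29 ± 0.09 (adjusted p = 0.0141), which did not pass. Adding EC359 to vorinostat lowered it by a log2 difference of -0.77 ± 0.09 (adjusted p = 0.000363), a 1.70-fold decrease.

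ACTG1 did not follow ACTB. It was 3728 and 3966 CPM in vehicle, 1944 and 2385 with EC359, 3985 and 4034 with vorinostat, and 3601 and 3342 in the combination. The EC359 libraries were far below the other 6, and there ACTG1 fell by 0.83 ± 0.10 on the log2 scale (adjusted p = 0.000675). With vorinostat its difference from vehicle was 0.06 ± 0.10 (95% interval -0.17 to 0.29), and in the combination -0.15 ± 0.10 (-0.37 to 0.08), and neither passed. Adding vorinostat to EC359 raised it by 0.68 ± 0.10 (adjusted p = 0.000274), while the same addition lowered ACTB by 0.48 ± 0.09 on that scale (log2 fold change -0.48, adjusted p = 0.000886). The EC359 calls rest on few libraries. Without vehicle library 1 or 2 the adjusted p of ACTB in EC359 against vehicle was 0.0299 or 0.0172, without vehicle library 2 that of ACTG1 was 0.0112, and a fit on these 4 libraries alone gave 0.0361 and 0.0270.

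As a share of actin transcripts, counted per kilobase, ACTB made up 57.8% ± 2.00 (SD, n = 2) in vehicle, 61.9% ± 4.97 with EC359, 51.8% ± 0.599 with vorinostat and 42.1% ± 3.41 in the combination. ACTG1 made up nearly all of the rest, 42.2%, 38.0%, 48.2% and 57.9%. Vehicle and EC359 libraries overlapped, at 59.2% and 56.4% against 65.5% and 58.4%. The vorinostat libraries lay below them at 52.2% and 51.3%, and the combination libraries were lowest at 39.7% and 44.5%. There ACTG1 had the larger share at the lengths used, but which of the pair is larger depends on those lengths. Over coding transcripts ACTB spans 1592 to 2720 RPKM with vorinostat and ACTG1 1610 to 3265. In the combination ACTB spans 934 to 1596 RPKM and ACTG1 1394 to 2827. With 2 libraries against 2 no permutation test can reach 0.05, so these shares are a description. Of raw actin counts, ACTB took 57.8% in vehicle library 1 (95% Wilson interval 57.6 to 58.0) and 38.3% in combination library 1 (38.0 to 38.6), and such intervals cover counting error only, since reads without molecular identifiers are not independent molecules. Reads of 50 bases can be shared between copies: 19.1% of the 50-base stretches of the ACTB transcript and 8.24% of those of ACTG1 occur elsewhere in the genome, but 1.19% and 0.535% occur in another actin transcript.

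**Figure D2:**
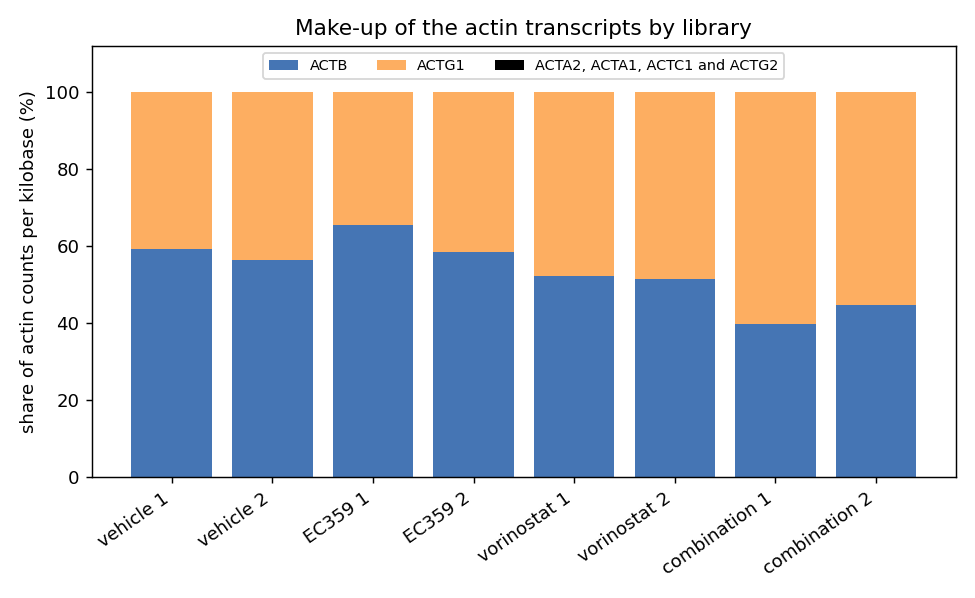
Share of each actin gene in the summed actin counts per kilobase of transcript (vertical axis, percent) in each of the 8 libraries (bars). ACTB, the lower part, is 56.4% to 65.5% without vorinostat, 51.3% and 52.2% with vorinostat and 39.7% and 44.5% in the combination, while ACTA2, ACTA1, ACTC1 and ACTG2 together are too small to see.

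ACTA2 (chr10:90694831-90751096), the smooth muscle alpha actin that marks myofibroblasts and is often used as a readout of MRTF and SRF, was near the limit of detection. It had 14 and 5 counts in vehicle, 11 and 5 with EC359, 19 and 15 with vorinostat, and 9 and 5 in the combination. Vehicle and vorinostat overlap, since the lower vorinostat library (0.638 CPM) lies below the higher vehicle library (0.661 CPM). Both vorinostat libraries lie above those of EC359 (0.454 and 0.254 CPM) and the combination (0.461 and 0.255 CPM), but no difference could be detected at this depth (log2 fold change with vorinostat 0.83 ± 0.63, adjusted p = 0.267). Its exons overlap those of FAS, which did not pass in the 4 comparisons with vehicle or vorinostat. The other muscle actins, ACTA1, ACTC1 and ACTG2, had 0 to 17 counts in a library and did not pass the filter. ACTBL2, an actin gene of a single exon on chromosome 5, was not on any list and was picked after its values were seen. It had 2 and 0 counts in vehicle, 2 and 0 with EC359, 574 and 733 with vorinostat, and 448 and 418 in the combination. The pooled ratio to vehicle was 648 with vorinostat (exact 95% interval 179 to 5355) and 471 in the combination (130 to 3899). These intervals treat reads as independent and cover counting error only, not the spread between libraries. None of the 50-base stretches of ACTBL2 occurs elsewhere in the genome.

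SRF (chr6:43139007-43149244), the transcription factor itself, was 79.6 and 78.7 CPM in vehicle and 89.9 and 71.0 CPM with EC359, which overlap (log2 fold change 0.02 ± 0.14, 95% interval -0.29 to 0.34). With vorinostat it was 51.3 and 46.6 CPM, below every other library. It fell there by 0.69 ± 0.14 on the log2 scale (adjusted p = 0.00208), a 1.62-fold decrease. In the combination SRF was back at 77.7 and 95.6 CPM, which overlaps vehicle (0.13 ± 0.14, adjusted p = 0.427). Against vorinostat alone it thus rose by 0.82 ± 0.14 (adjusted p = 0.00321), the one member to rise on adding EC359. These calls need all the libraries involved. Without vehicle library 1 or 2 the adjusted p of the fall with vorinostat was 0.0154 or 0.014, and without vorinostat library 1 or 2 it was 0.0105 or 0.0235. For the rise it was 0.0317 or 0.0521 without vorinostat library 1 or 2, and 0.0119 or 0.0376 without combination library 1 or 2.

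TPM1 (chr15:63334819-63364114) encodes tropomyosin 1, which lies along actin filaments and governs their access to myosin and cofilin. Its levels were 604 and 561 CPM in vehicle, 266 and 239 with EC359, 141 and 138 with vorinostat, and 105 and 109 in the combination. No groups overlapped, and the order from vehicle to combination was a stepwise decrease. TPM1 fell with EC359 (log2 fold change -1.21 ± 0.09, adjusted p = 4.50e-05), with vorinostat (-2.06 ± 0.09, adjusted p = 3.67e-07) and in the combination (-2.45 ± 0.10, adjusted p = 9.93e-08), where it was 5.45-fold lower. Adding EC359 to vorinostat gave a further -0.39 ± 0.09 that did not pass (adjusted p = 0.014), though it did with DESeq2 (adjusted p = 0.00146). Counts are per gene, so the splice forms of TPM1 in muscle and nonmuscle cells cannot be told apart.

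TAGLN (chr11:117070086-117078180) encodes transgelin (SM22), an actin-binding protein of smooth muscle and fibroblasts and a widely used SRF target. It was 82.6 and 79.7 CPM in vehicle, 61.6 and 49.5 with EC359, 36.6 and 38.5 with vorinostat, and 24.7 and 30.8 in the combination. It fell by 1.11 ± 0.14 on the log2 scale with vorinostat (adjusted p = 0.000110) and by 1.55 ± 0.14 in the combination (adjusted p = 1.27e-05). The difference with EC359 was -0.55 ± 0.14 (adjusted p = 0.0265) and did not pass, and with DESeq2 it did (adjusted p = 0.00920). Of its 50-base stretches 34.6% occur elsewhere in the genome. Its exons also overlap those of PCSK7, which rose with vorinostat by 0.78 ± 0.12 on the log2 scale (adjusted p = 0.000429). On adding EC359 to vorinostat PCSK7 fell (log2 fold change -0.58 ± 0.12, adjusted p = 0.00851), and with EC359 alone it was -0.44 ± 0.12 (adjusted p = 0.0426). In both of these the direction was that of TAGLN, and the part of the overlap in these counts was not tested.

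MYL9 (chr20:35169900-35179850) encodes the regulatory light chain whose phosphorylation switches on nonmuscle and smooth muscle myosin. It was 118 and 115 CPM in vehicle, 59.6 and 49.3 with EC359, 88.5 and 88.1 with vorinostat, and 47.0 and 55.4 in the combination. The EC359 and combination libraries overlapped, and both lay below the vorinostat libraries, which lay below vehicle. MYL9 fell with EC359 by 1.10 ± 0.12 on the log2 scale (adjusted p = 0.000367) and in the combination by 1.19 ± 0.12 (adjusted p = 2.47e-05). With vorinostat the difference was -0.40 ± 0.12 (adjusted p = 0.0149). Adding EC359 to vorinostat gave a fall of 0.79 ± 0.12 (log2 fold change -0.79, adjusted p = 0.00190), whose adjusted p was 0.0202 without vorinostat library 1, 0.0201 without vorinostat library 2 and 0.0206 without combination library 1. In the fit on the 4 libraries alone the fall with EC359 had an adjusted p of 0.0111.

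CNN1 (chr19:11649582-11661138) encodes calponin 1, a regulator of smooth muscle contraction and a marker of that cell type. Its counts were 11 and 10 in vehicle, 8 and 0 with EC359, 619 and 661 with vorinostat, and 611 and 536 in the combination. It was the gene of the 10 that rose against vehicle, by 5.91 ± 0.36 on the log2 scale with vorinostat (adjusted p = 1.61e-06), a 60.0-fold increase, and by 5.88 ± 0.36 in the combination (adjusted p = 1.15e-06). The pooled count ratio was 60.4 with vorinostat (exact 95% interval 39.4 to 98.0, which covers counting error only and not the spread between libraries). The combination did not differ from vorinostat beyond its error (-0.03 ± 0.24, 95% interval -0.57 to 0.51).

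Other smooth muscle markers were read beside CNN1. MYH11, LMOD1 and MYOCD, which define the cell type, did not exceed 0.213 CPM in any library. DES, the muscle intermediate filament desmin, had 0 to 2 counts in each library without vorinostat and 23 to 49 in each with it. SMTN, a smooth muscle protein also made elsewhere, ranged from 14.2 to 66.9 CPM and rose with vorinostat by 1.23 ± 0.17 on the log2 scale (adjusted p = 0.000199). Their part in the rise of CNN1 was not tested.

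VCL (chr10:75754951-75881121) encodes vinculin, which couples talin at focal adhesions to actin filaments under load. It was 337 and 318 CPM in vehicle, 274 and 260 with EC359, 355 and 354 with vorinostat, and 266 and 273 in the combination. The vorinostat libraries were highest and the EC359 and combination libraries, which overlap, lowest. Adding EC359 to vorinostat lowered VCL by a log2 fold change of -0.40 ± 0.08 (adjusted p = 0.00708), but without any one of the vehicle, vorinostat or combination libraries the adjusted p was 0.0212 to 0.0547. Against vehicle the difference was -0.30 ± 0.08 with EC359 (adjusted p = 0.0359) and -0.28 ± 0.08 in the combination (adjusted p = 0.0115), and it was 0.11 ± 0.08 with vorinostat. The exons of VCL overlap those of AP3M1, which did not pass in these comparisons.

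FLNA (chrX:153576892-153603002) encodes filamin A, which crosslinks actin filaments into a mesh and ties them to integrins. Its levels were 4059 and 3879 CPM in vehicle, 3004 and 3318 with EC359, 4699 and 4894 with vorinostat, and 3940 and 3764 in the combination. It stood lowest with EC359 and highest with vorinostat, and the combination overlapped vehicle (-0.04 ± 0.08). Neither the difference with EC359 (-0.33 ± 0.08, adjusted p = 0.0193) nor that with vorinostat (0.27 ± 0.08, adjusted p = 0.0113) passed. The combination was higher than EC359 by 0.29 ± 0.08 (adjusted p = 0.00856), which did not hold with DESeq2 (adjusted p = 0.0147) or without any one of the vehicle, vorinostat or combination libraries (0.0208 to 0.150).

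Against vehicle, 4 of the 10 genes passed with EC359, and all 4 were lower: TPM1, MYL9, ACTG1 and ACTB. Of all tested genes 4.01% fell and 3.81% rose in this comparison, while 0 of the 10 rose, by edgeR, at an unadjusted p under 0.05 or with DESeq2. TPM1 and MYL9 also passed a log2 fold change of 1, as did 3.67% of all genes. The median log2 fold change of the 10 was -0.56, beside -0.02 over all tested genes. Without vehicle library 2 the number that passed was 2 and without EC359 library 1 it was 8, and only TPM1 passed in a fit on the 4 libraries.

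With vorinostat, 3 of the 10 fell (TPM1, TAGLN and SRF) and CNN1 rose. This was read against a background in which 25.9% of all genes fell and 26.2% rose, so these counts are close to or below what the tested genes show in general. CNN1, TPM1 and TAGLN also passed a log2 fold change of 1, as did 30.1% of all genes. The median of the 10 was -0.12, beside 0.03 over all genes. The spread is estimated over all groups, and leaving out either EC359 library gave 7 genes in place of 4.

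In the combination, 4 of the 10 fell (TPM1, TAGLN, MYL9 and ACTB) and CNN1 rose, beside 26.7% and 29.7% of all genes. All 5 passed a log2 fold change of 1, which 34.8% of all genes did. The median of the 10 was -0.30, beside 0.07 over all genes. TAGLN passed with vorinostat but not with EC359 and ACTB and MYL9 passed with EC359 but not with vorinostat, and all of these genes passed in the combination. The differences that did not pass were also below 0 (TAGLN -0.55, ACTB -0.29 and MYL9 -0.40), with adjusted p of 0.0265, 0.0141 and 0.0149. The interactions of these genes did not pass either, but an interaction does not compare EC359 with vorinostat. That comparison was not run, so passing with a single drug does not say whether the drugs differ. The comparisons share the vehicle libraries.

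Adding EC359 to vorinostat lowered 3 of the 10 (MYL9, ACTB and VCL) and raised SRF. Of all tested genes 5.26% fell and 8.45% rose on this addition. By edgeR and by DESeq2, 0 of the 10 passed a log2 fold change of 1 here, beside 4.25% of all genes by edgeR, and 7 of the 10 had an unadjusted p under 0.05. The median of the 10 was -0.39, beside -0.01 over all genes. The number that passed was 8 without either EC359 library. It was 1 without vorinostat library 1, vorinostat library 2 or combination library 1, and 2 without combination library 2.

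Adding vorinostat to EC359 raised CNN1, ACTG1 and FLNA and lowered ACTB, TAGLN and TPM1. These 3 and 3 stand beside 29.5% of all genes that rose and 26.3% that fell. CNN1, TAGLN and TPM1 passed a log2 fold change of 1, as did 33.7% of all genes. TPM1 differed by -1.24 ± 0.09 (adjusted p = 3.70e-06) and TAGLN was 2.00-fold lower (adjusted p = 0.000211). The median of the 10 was 0.00, beside 0.06 over all genes. The log2 fold change of CNN1, 7.29 ± 0.42, depends on an EC359 library with 0 counts and was 6.43 to 12.2 when single libraries were left out: 12.2 was the value without EC359 library 1.

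**Figure D3:**
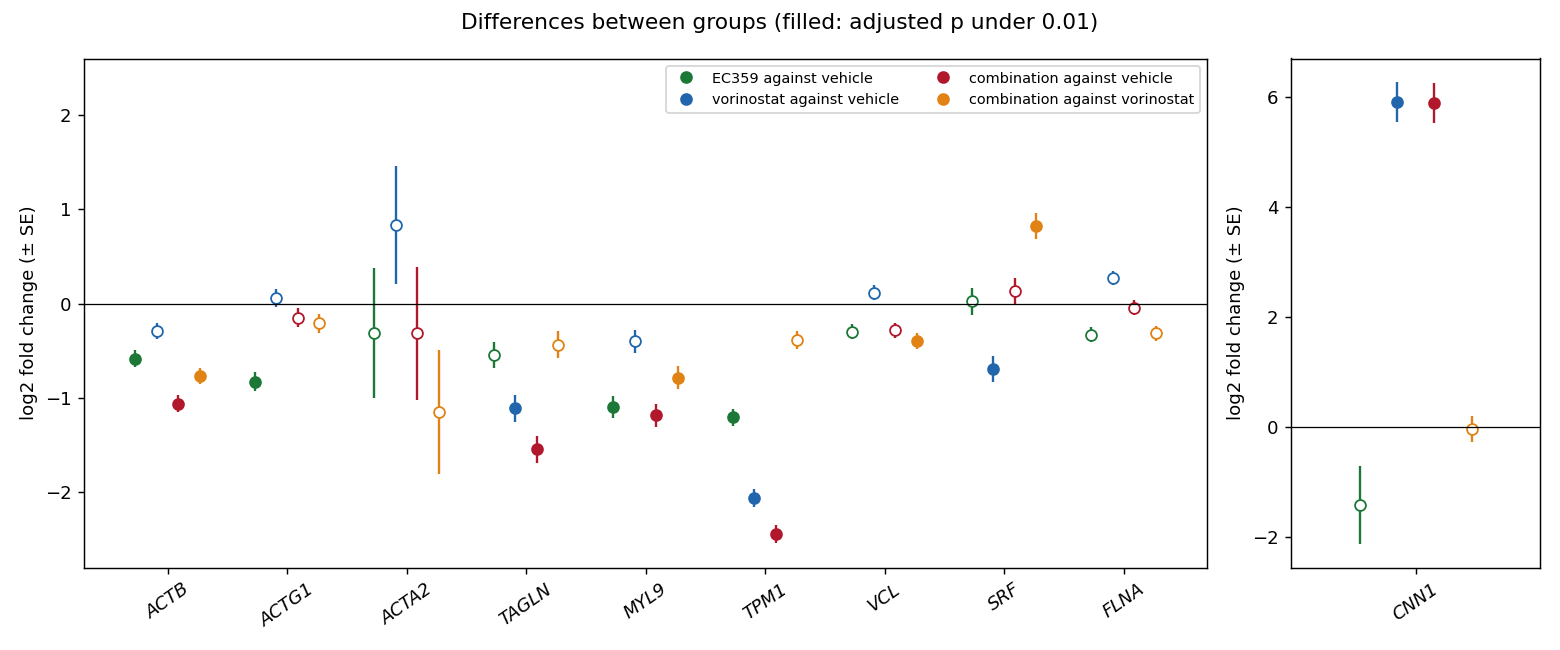
Log2 fold changes of the 10 genes (vertical axis, bars are ± 1 standard error) in 4 comparisons, with CNN1 on its own scale; filled points have an adjusted p under 0.01. Filled EC359 points are all below 0, CNN1 stands near 5.9 in both vorinostat-treated groups, and SRF is the one gene with a filled point above 0 when EC359 is added to vorinostat.

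Whether EC359 acted differently with vorinostat present was tested as an interaction, the log2 effect of EC359 with vorinostat minus that without. TPM1 passed, at 0.82 ± 0.13 (adjusted p = 0.00716). TPM1 was 2.31-fold lower with EC359 alone than in vehicle. In the combination it was 1.31-fold lower than with vorinostat, a difference that did not pass (adjusted p = 0.014). Of all tested genes 1.62% passed with an interaction above 0 and 0.482% with one below 0. Among the 10, the number that passed with one below 0 was 0 by edgeR, at an unadjusted p under 0.05 and by DESeq2. ACTG1 (0.62 ± 0.14, adjusted p = 0.0347) and SRF (0.80 ± 0.20, adjusted p = 0.0465) did not pass. The median of the 10 was 0.21, beside 0.02 over all genes. The TPM1 interaction was lost without any one of the vehicle, vorinostat or combination libraries (adjusted p 0.0389 to 0.0856) and with RLE normalization (0.0112). Without EC359 library 1 or 2 the number of the 10 genes that passed was 4 or 2.

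**Figure D4:**
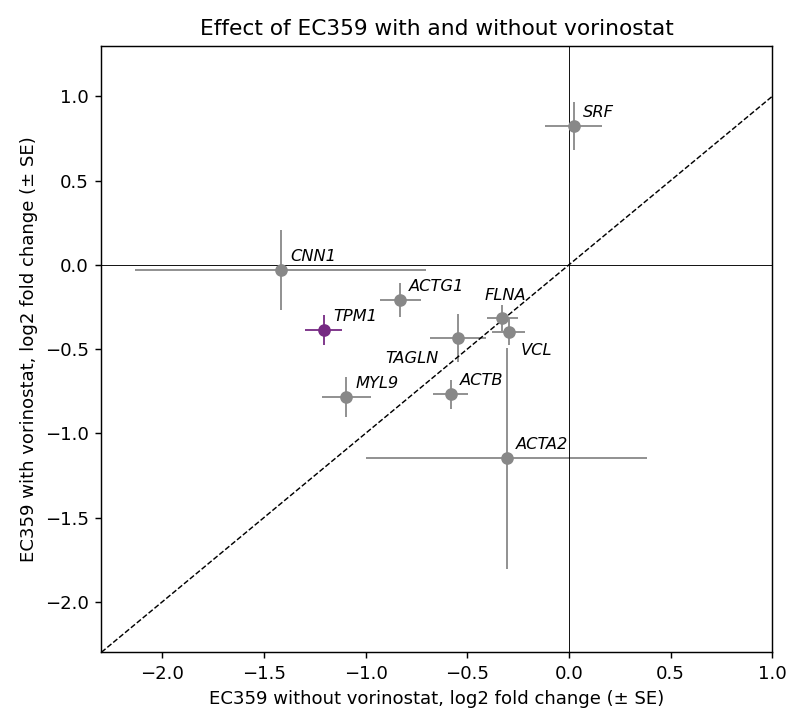
Log2 fold change of each gene by EC359 with vorinostat (vertical axis) against that without it (horizontal axis), with bars of ± 1 standard error and a dashed line where both are equal. TPM1, in purple, is the gene with an adjusted interaction p under 0.01, at -1.21 without and -0.39 with vorinostat, and SRF lies at 0.02 and 0.82.

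The wider pathway was read from 6 lists of other genes. They held SRF coactivators and ETS partners (6 of 8 tested), other actins (ACTA1, ACTC1 and ACTG2, 0 of 3 tested), contractile and stress fibre genes (20 of 23), focal adhesion partners of vinculin (22 of 23), actin filament turnover genes (28 of 28) and immediate early SRF targets (9 of 9). The background shares given for the 10 genes hold for these lists too.

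Among the regulators of SRF, MRTFA (listed as MKL1) rose with vorinostat by 1.00 ± 0.10 (adjusted p = 2.31e-05), from 49.7 ± 4.19 CPM in vehicle to 99.4 ± 0.281 CPM. SCAI, which represses the MRTF coactivators, rose by 0.66 ± 0.15. MRTFB (listed as MKL2) fell by 0.53 ± 0.14 on the log2 scale, and the ETS partner ELK4 had a log2 fold change of -0.40 ± 0.10. ELK3, another ETS partner, rose with EC359 by 1.71 ± 0.23 and on adding EC359 to vorinostat by 1.33 ± 0.23. Its EC359 libraries were far apart, at 2990 and 1376 counts, beside 655 and 604 in vehicle. ELK4 also rose on that addition, by 0.65 ± 0.10, as did ELK1, by 0.59. MYOCD and ABRA, activators of muscle, had at most 2 counts in any library and were not tested. In the combination 4 of the 6 tested rose and 1 fell, beside 29.7% and 26.7% of all tested genes.

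The contractile and stress fibre genes moved in both directions. With EC359, 4 of the 20 fell (CNN2, FLNC, PDLIM7 and CNN3), beside 4.01% of all tested genes. CNN2, the calponin of nonmuscle cells, had a log2 fold change of -1.10 ± 0.13 and the filamin FLNC one of -0.85 ± 0.17. With vorinostat 6 rose and 10 fell, beside 26.2% and 25.9% of all tested genes. TGFB1I1, a focal adhesion adaptor also known as Hic-5, had the lowest log2 fold change (-3.36 ± 0.21), from 61.4 ± 2.38 to 5.98 ± 0.276 CPM, and the tropomyosin TPM4 had -2.14 ± 0.13. SYNPO2, an actin-bundling protein of muscle, rose by 3.41 ± 0.28 from 14 and 12 counts in the vehicle libraries to 126 and 156. In the combination 5 rose and 11 fell, beside 29.7% and 26.7% of all tested genes, with a median log2 fold change of -0.57. On adding EC359 to vorinostat TAGLN2 had a log2 fold change of -0.58 ± 0.08.

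Of the focal adhesion partners of vinculin, 3 of 22 fell with EC359 (TNS3, TES and FHL1), beside 4.01% of all tested genes. TNS3, a tensin that links integrins to actin, had a log2 fold change of -1.62 ± 0.09 (adjusted p = 8.16e-06) and TES one of -0.77 ± 0.09. With vorinostat 9 fell and 3 rose, beside 25.9% and 26.2% of all tested genes. ZYX, the zyxin recruited to strained stress fibres, had a log2 fold change of -2.60 ± 0.13 and dropped from 162 ± 10.5 to 26.6 ± 0.799 CPM, and TNS3 had -2.34 ± 0.09. The talin TLN2 rose by 1.87 ± 0.11 and TES by 1.40 ± 0.09. In the combination 13 of the 22 fell and 4 rose, beside 26.7% and 29.7% of all tested genes, with a median of -0.49. On adding EC359 to vorinostat 4 rose and 3 fell, beside 8.45% and 5.26% of all tested genes. The rises were led by FHL2 (1.48 ± 0.23) and the alpha-actinin ACTN1 (0.65 ± 0.08). The falls were led by TNS3 (-1.26 ± 0.09) and the kindlin FERMT2 (-1.15 ± 0.12).

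Of the 28 genes that assemble, cap or sever filaments, 1 passed with EC359, the Arp2/3 activator WASL (0.52 ± 0.10, adjusted p = 0.00976). Among all tested genes 3.81% rose and 4.01% fell with EC359. With vorinostat 9 of the 28 fell and 5 rose, beside 25.9% and 26.2% of all tested genes. WDR1, which helps cofilin to disassemble filaments, had a log2 fold change of -1.72 ± 0.10 and the Arp2/3 subunit ACTR3 one of -1.52 ± 0.09. The severing protein gelsolin, GSN, rose by 1.14 ± 0.15 and ENAH by 0.95 ± 0.17. In the combination 10 fell and 6 rose, beside 26.7% and 29.7% of all tested genes. On adding EC359 to vorinostat the cofilins CFL2 (-1.08 ± 0.09) and CFL1 (-0.44 ± 0.08) fell with PFN2, while WASL (0.77 ± 0.11) and the cofilin phosphatase SSH1 (0.60 ± 0.13) rose.

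The immediate early genes, which SRF reaches through ETS factors, rose with vorinostat in 8 of 9 cases, with a median log2 fold change of 1.90. All 9 rose in the combination, with a median of 3.75. Among all tested genes 26.2% rose with vorinostat and 29.7% in the combination. NR4A1 rose by 4.04 ± 0.17 and FOS by 3.18 ± 0.13 with vorinostat. EGR1 fell with EC359 alone (-0.94 ± 0.18, adjusted p = 0.00865), where NR4A1 (0.98 ± 0.17) and MCL1 (0.61 ± 0.09) rose. On adding EC359 to vorinostat 6 rose, beside 8.45% of all tested genes. EGR3 rose by 3.77 ± 0.27 from 30 and 63 counts to 494 and 654, and FOSB by 2.49 ± 0.22.

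**Figure D5:**
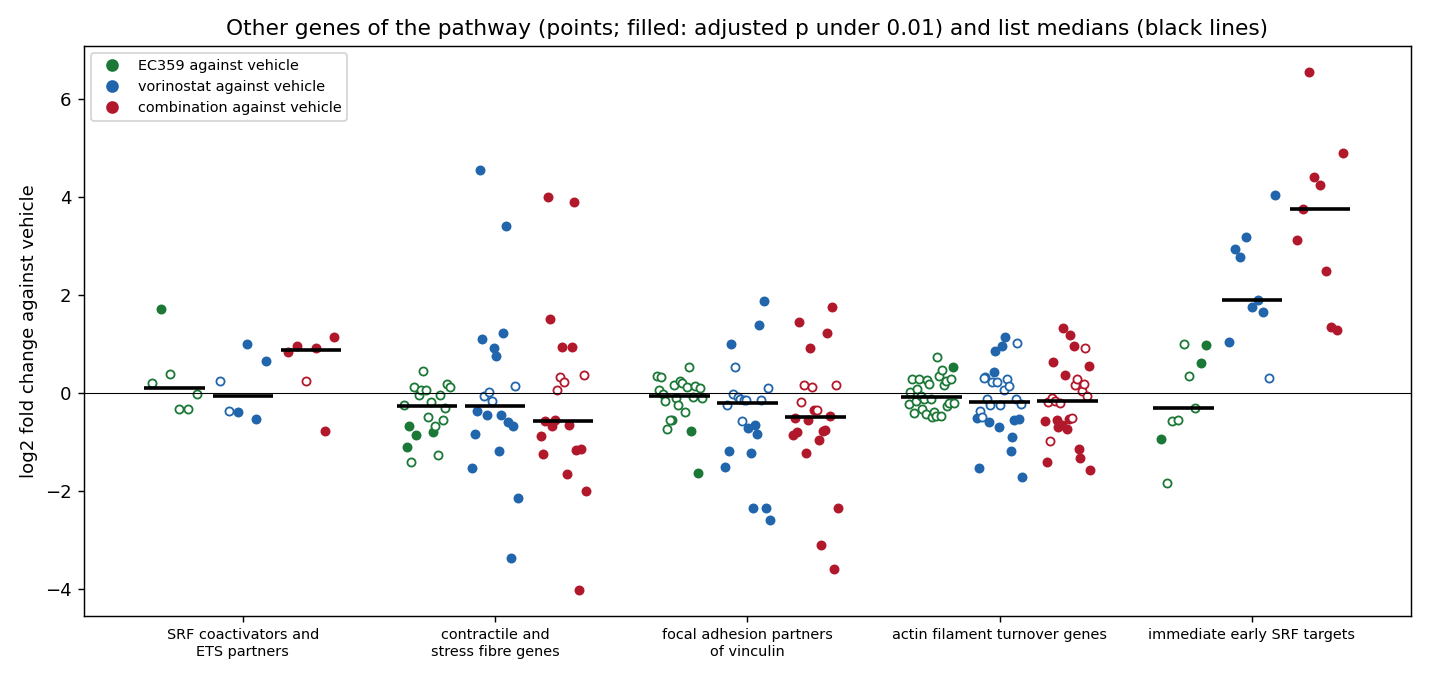
Log2 fold changes against vehicle (vertical axis) of the tested genes of 5 lists (horizontal axis) in 3 comparisons, with filled points for an adjusted p under 0.01 and black lines for list medians. The immediate early genes have medians of -0.30 with EC359, 1.90 with vorinostat and 3.75 in the combination, and the contractile genes -0.27, -0.26 and -0.57.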

How the data were processed

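RNA-seq was performed on 8 BT-549 libraries. Per the labels and the study's methods, the authors extracted total RNA with an RNeasy kit, made libraries with an Illumina TruSeq kit, sequenced 50 bp single-end reads on an Illumina HiSeq, aligned these to hg19 with TopHat2 2.0.8b and used HTSeq to count them over NCBI RefSeq genes. What was deposited is raw counts per gene symbol, and 5 HTSeq summary lines per library were left out (11.0% to 14.2% of reads on no gene). The HTSeq version and strand setting are not given in the sources used here, and the counts of overlapping genes may depend on them.

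Counts were filtered with filterByExpr by group, scaled by TMM and fitted with edgeR 4.0.16 in R 4.3.3, with 1 mean per group over all 8 libraries. Quasi-likelihood p-values were adjusted (Benjamini-Hochberg) over 13694 genes, at the study's threshold of 0.01. Each standard error is the size of the log2 fold change over the square root of F. RPKM used the MANE Select transcript of GENCODE (v44, lifted to GRCh37). Besides the 10 genes and all SRF coactivators and ETS partners, up to 2 genes in each direction were named per list, with an adjusted p under 0.01 and an average log2 CPM of at least 1, in 3 comparisons (each drug against vehicle, and the combination against vorinostat). Genes named outside this rule (PDLIM7, CNN3, FHL1, PFN2, DES, PCSK7, FAS, AP3M1 and ACTBL2) were picked after their values were seen. The 10 genes and the lists were chosen with earlier results of these data known. The alternatives were total-count and RLE scaling, DESeq2 1.42.0, other filters, a threshold of 0.05, fits on 4 libraries, a replicate block and leaving out each library. The procedure was tested on simulated data. The authors' DESeq results were not used here, and a further list and a gene of the named lists are not reported here.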

Additional observations from a re-analysis of the deposited data

Results flagged for a closer look

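In the main fit on all 8 libraries, the effect of EC359 on TPM1 differed between cells with and without vorinostat. The interaction was 0.82 ± 0.13 on the log2 scale (edgeR's quasi-likelihood test, adjusted p = 0.00716), from -1.21 ± 0.09 without vorinostat to -0.39 ± 0.09 with it. TPM1 was lower in both EC359 libraries than in both vehicle libraries, and lower in both combination libraries than in both vorinostat libraries, so the direction is shared and the size differs. The interaction remained above 0 with each library left out (0.73 to 0.90), with an adjusted p of 9.65e-05 to 0.0856. It did not pass with RLE normalization (adjusted p = 0.0112) or with a replicate block (adjusted p = 0.0143), so the call depends on these choices. What lies behind the smaller effect was not tested.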

How the results depend on the processing

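Of 60 log2 fold changes or interactions of the 10 genes, 24 passed, and under the alternatives run these kept their direction. In 16 of them the call held with each library left out, and in 18 under every other alternative. With 2 libraries a group, leaving 1 out assumes that the lone library varies like the other groups. The number of genes that passed was then 350 to 3766 with EC359, 4851 to 8960 with vorinostat, 5633 to 9414 in the combination, 349 to 4574 for the combination against vorinostat, 5910 to 8675 against EC359 and 56 to 1437 for the interaction. Among the 10 genes the numbers were 2 to 8, 3 to 7, 5 to 6, 1 to 8, 5 to 6 and 0 to 4.

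With DESeq2, 1664 genes passed with EC359 (1071 with edgeR) and 713 for the interaction (288). With RLE 0 of the 10 passed the interaction, a 0 that holds for that scaling (1 with DESeq2, and 3 had an unadjusted p under 0.05 with TMM). In fits on 4 libraries 243 genes and 1 of the 10 passed with EC359, 7 of the 10 with vorinostat, and 4315 genes (1877 in the full fit) and 7 of the 10 for the combination against vorinostat. At an adjusted p under 0.05, 2283 genes and 7 of the 10 passed with EC359, 7 with vorinostat, 3893 genes and 7 for the combination against vorinostat, and 925 genes and 3 for the interaction. Without transcript length the ACTB share with vorinostat was 50.3%.

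Signs turned only for values near 0 or with few counts. VCL in the combination against EC359 was -0.00963 with DESeq2, -0.00954 with RLE, -0.0524 with total counts, -0.0478 without a filter, -0.0296 in the 4-library fit and -0.0717 to 0.0389 with a library left out. The FLNA interaction was -0.0348 with DESeq2 and with RLE, -0.0648 with total counts, -0.0508 without a filter and -0.0780 to 0.0774 with a library left out. Leaving out libraries also turned ACTA2 (-0.86 to 0.62 with EC359, -0.88 to 0.60 in the combination, -0.55 to 0.47 between them), SRF (-0.15 to 0.19, -0.0781 to 0.225 and -0.12 to 0.27 in those comparisons), MYL9 in the combination against EC359 (-0.281 to 0.0410), the TAGLN interaction (-0.12 to 0.27) and CNN1 in the combination against vorinostat (-0.167 to 0.0195). The causes were not tested.

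Libraries share replicate numbers across groups, and deviations of same-numbered libraries correlated at -0.241 to 0.368. The value was 0.368 between vehicle and EC359, and it was below 0 between the combination and each other group. Whether the replicate numbers pair the libraries cannot be told from these values. With that number fitted as a replicate block, 189 genes and 0 of the 10 passed the interaction (TPM1 at an adjusted p of 0.0143), VCL in the combination against vorinostat had 0.0141 and FLNA in the combination against EC359 0.0155, and ACTA2 in the latter was 0.0189. With the combination's numbers exchanged in the block, chosen after seeing the data, 7 of the 10 passed with vorinostat, 477 genes and 3 of the 10 the interaction, and ACTA2 in the combination against EC359 was 0.0610. Depth limits ACTA2, with 5 to 19 counts in a library, and CNN1 without vorinostat, with 0 to 11.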
